A study of Mus musculus with 4 samples.

Results

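The type 2 cytokine axis was followed as 10 genes, chosen by symbol among the 31053 features counted: the ligands Il4, Il5, Il13 and Areg, the source-cell genes Gata3 and Il1rl1, the receptor genes Il4ra and Il13ra1, and the myeloid response genes Retnla and Chil3. They were measured by single-cell RNA sequencing of live CD45+ leukocytes sorted from untreated mouse fibrosarcomas on day 11 after implantation. One group of tumours grew from cells lacking Raldh1 and Raldh3, the enzymes that make retinoic acid (Raldh1/3 DKO), and the other from Cas9 control cells without that deletion. Each group had 2 libraries, and each library pooled 2 tumours, so the library was the replicate and 4 tumours stood behind each group. The deletion was in the tumour cells, which a CD45+ sort is meant to leave out; 194 kept cells led by collagen genes still formed a tumour or fibroblast-like cluster. The comparison asked which leukocytes carried the transcripts of the axis and whether their level differed between DKO and control tumours.

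In type 2 immunity, T helper cells and innate lymphoid cells that express the transcription factor GATA3 secrete IL-4, IL-5 and IL-13, and often the epidermal growth factor family ligand amphiregulin, encoded by Areg. The receptor for the alarmin IL-33, encoded by Il1rl1, marks many of these source cells, as well as mast cells and tissue regulatory T cells. IL-4 and IL-13 bind receptors that contain IL-4Rα, alone with the common gamma chain for IL-4 or together with IL-13Rα1 for both, and signal through JAK kinases and STAT6. In mouse macrophages this signal induces genes such as Retnla and Chil3, the classical marks of alternative activation.

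Il4, Il13 and Il5 lie together on chromosome 11 (GRCm38), within 122.1 kb and on both sides of Rad50, a DNA repair gene. Il4 (ENSMUSG00000000869) spans chr11:53602982-53618669 on the minus strand. Il13 (ENSMUSG00000020383) spans chr11:53631324-53634702 on the minus strand. Il5 (ENSMUSG00000036117) spans chr11:53720794-53725106 on the plus strand. Retnla (ENSMUSG00000061100) lies at chr16:48842551-48844461 on the plus strand, and Chil3 (ENSMUSG00000040809) at chr3:106147554-106167564 on the minus strand. The bases just upstream of these 5 genes are shown because 3 of them were the neighbouring ligand genes that were detected together, and the other 2 are the response genes described last. They were read from RefSeq's promoter table (GRCm38.p6), 5′ to 3′ on the gene's own strand. The Il4 and Retnla sequences stop at the gene start given above, 4 and 58 bases short of the RefSeq start. Capitals mark TTCNNNNGAA, the spacing of STAT6 sites, and TTCNNNGAA, the spacing of other STAT sites. They also mark GATAA, a form of the GATA site, with TTATC where GATAA lies on the other strand.
Il4, chr11:53618670-53618915, minus strand: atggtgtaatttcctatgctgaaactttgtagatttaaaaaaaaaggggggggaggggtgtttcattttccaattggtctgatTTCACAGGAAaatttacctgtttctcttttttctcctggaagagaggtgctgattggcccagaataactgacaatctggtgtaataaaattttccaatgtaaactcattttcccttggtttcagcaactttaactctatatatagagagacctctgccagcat
Il13, chr11:53634703-53634952, minus strand: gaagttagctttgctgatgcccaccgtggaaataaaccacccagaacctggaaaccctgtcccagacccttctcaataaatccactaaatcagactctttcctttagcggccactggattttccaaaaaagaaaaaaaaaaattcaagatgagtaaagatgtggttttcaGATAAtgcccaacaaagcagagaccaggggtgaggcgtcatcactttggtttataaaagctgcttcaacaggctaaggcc
Il5, chr11:53720544-53720793, plus strand: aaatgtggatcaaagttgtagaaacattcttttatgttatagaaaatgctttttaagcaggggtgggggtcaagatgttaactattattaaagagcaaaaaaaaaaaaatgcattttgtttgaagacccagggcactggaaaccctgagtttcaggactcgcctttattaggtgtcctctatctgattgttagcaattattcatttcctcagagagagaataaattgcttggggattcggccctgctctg
Retnla, chr16:48842359-48842550, plus strand: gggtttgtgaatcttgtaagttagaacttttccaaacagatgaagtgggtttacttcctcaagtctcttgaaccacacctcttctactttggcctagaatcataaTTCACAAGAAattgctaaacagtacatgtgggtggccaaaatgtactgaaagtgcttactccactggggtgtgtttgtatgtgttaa
Chil3, chr3:106167565-106167814, minus strand: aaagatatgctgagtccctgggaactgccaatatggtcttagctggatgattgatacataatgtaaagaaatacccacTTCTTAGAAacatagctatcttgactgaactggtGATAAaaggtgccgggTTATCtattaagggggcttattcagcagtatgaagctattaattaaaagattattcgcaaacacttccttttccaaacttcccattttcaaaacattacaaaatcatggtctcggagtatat

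In these windows the Il4 and Retnla sequences each held 1 match to TTCNNNNGAA, at 167 to 158 bases (TTCACAGGAA) and 145 to 136 bases (TTCACAAGAA) before the RefSeq start. The Chil3 window held TTCTTAGAA, a match to TTCNNNGAA, at 172 to 164 bases and GATAA at 138 to 134 and, on the other strand, at 122 to 118 bases. GATAA stood at 80 to 76 bases before the Il13 start. Searched on both strands, TTCNNNNGAA occurred in 5.85% of the 32851 promoter windows of the table, TTCNNNGAA in 7.02% and GATAA in 22.6%. The Il5 window held none of these patterns, and no 2 matches overlapped in these windows. Other forms of the GATA site, such as GATAG, were not searched, so the Il5 window is not shown to lack them. These matches are letters in a window and say nothing about binding.

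The 4 libraries held 7201 and 5429 barcodes in DKO 1 and 2 and 9206 and 8668 in control 1 and 2, with 57458026 to 80032966 unique molecular identifiers (UMIs) each, and 25881 of 30504 barcodes were kept. Kept cells had a median of 6909 and 8247 UMIs in DKO and 7008 and 7372 in control. The cells fell into 25 clusters, made without the 10 members among the variable genes. T-like cells were a larger share of the kept cells in DKO (30.3% and 29.4%) than in control (20.3% and 15.3%), with a log2 change of 0.75 ± 0.21 (SE, edgeR quasi-likelihood test on cell numbers, Benjamini-Hochberg adjusted p = 0.177). Monocyte/macrophage-like cells were 45.4% and 40.2% of DKO cells, against 47.9% and 45.1% of control cells. That class leaves out clusters 8 and 14, which stayed unnamed although monocyte/macrophage markers scored highest in them. With both added, the share was 54.4% and 50.95% of DKO cells, against 66.4% and 69.9% of control cells. This wider share was not tested. The 8 T cell markers together had 1142 and 1147 CPM in DKO and 776 and 669 CPM in control over all kept cells. None of the class or cluster shares passed an adjusted p of 0.05. Any 2 libraries shared 20 to 38 barcode sequences. Aldh1a1, which encodes Raldh1, had 0 and 1 UMIs in DKO and 1 and 0 in control, and Aldh1a3, which encodes Raldh3, 10 and 23 in DKO and 28 and 9 in control, so the sorted leukocytes do not check the deletion.

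The ligands came mostly from T-like cells, and mainly from 1 cluster of them. Cluster 5, led by Cd4, Lgals7, Il13, Penk and Ccl1, with Cd3e in 84.8% of its 1702 cells, held 90.7% of all Il4 UMIs, 94.9% of Il5 UMIs, 95% of Il13 UMIs and 68.6% of Areg UMIs. A further 18.8% of Areg UMIs lay in cluster 20, led by Foxp3, the regulatory T cell factor. Cluster 15, 94 cells led by the mast cell protease genes Mcpt2, Mcpt4 and Cma1, held 2.31% of Il4 UMIs and 0 of Il5; mast cells and basophils are a textbook source of IL-4. Its cells, 14 and 59 in DKO and 14 and 7 in control, differed in kind between libraries, with control 1 furthest from the rest. Fcer1a, the mast cell and basophil receptor for IgE, was detected in 14.3% and 8.47% of them in DKO and 92.9% and 42.9% in control. These shares were not thinned, and the median depth was 594.5 and 668 UMIs in DKO and 5369 and 1275 in control. Summed eosinophil markers had 269 and 800 CPM in DKO and 16.9 and 206 CPM in control. Without doublet removal these cells split into eosinophil-like cells (11 and 54 in DKO, 0 and 5 in control) and mast cell or basophil-like cells (3 and 14 in DKO, 17 and 3 in control). Its Il4 level, 185 and 132 CPM in DKO and 42.1 and 103 CPM in control, from 28 and 8 UMIs in all, therefore sets different cells side by side and is no comparison of mast cells. CPM is here a gene's UMIs scaled by all UMIs of the same summed cells. Neutrophil-like cells had no Il4 UMI in any library. No cluster of innate lymphoid cells was named by the markers, and cells without Cd3e inside cluster 5 were not told apart from T cells with undetected Cd3e.

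**Figure D1:**
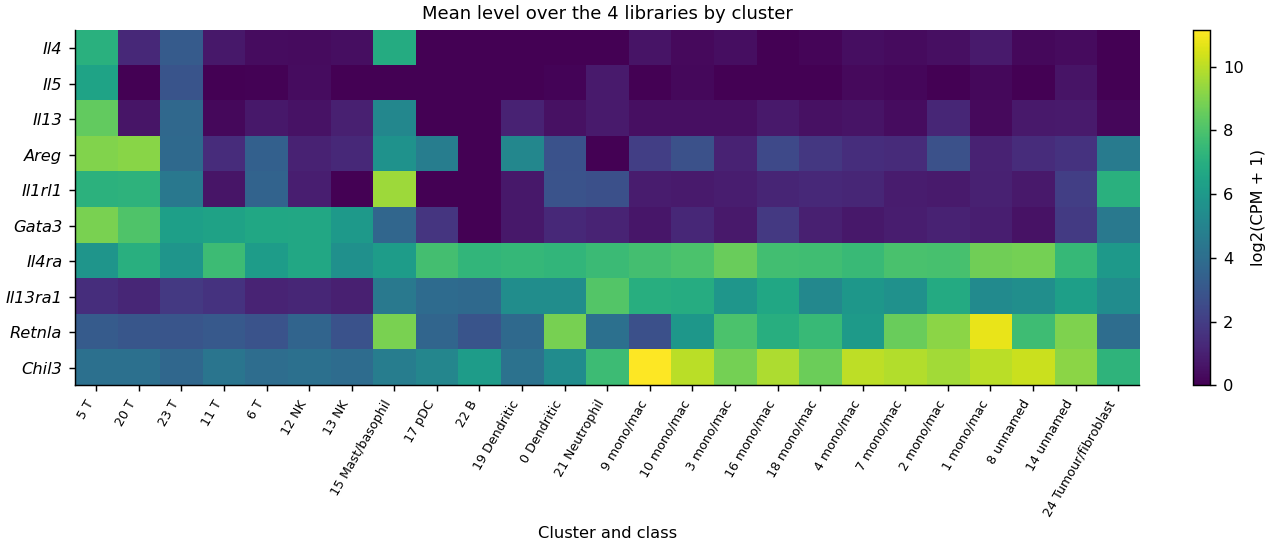
Heat map of the mean level over the 4 libraries, log2(CPM + 1), of the 10 members (down the page, in order of role) in the 25 clusters (across, with the class each was given). Il4, Il5 and Il13 stand out in cluster 5, and Areg there and in cluster 20. Il4 and Il1rl1 are also high in cluster 15, led by mast cell proteases, where the Il4 level rests on few UMIs. Il1rl1 is also high in tumour or fibroblast-like cluster 24. Retnla and Chil3 stand out in myeloid clusters. Retnla is also seen in dendritic-like cluster 0, where it lay mostly in cells of a Retnla-led finer cluster.

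Over all kept cells, the 4 ligands and Gata3 were higher in both DKO libraries than in both control libraries, by 1.29 to 2.18 on the log2 scale, and none passed the adjusted threshold. Il4, the cytokine that drives T helper 2 differentiation and the antibody switch to IgE, had 8.32 and 14.1 CPM in DKO and 3.13 and 1.59 CPM in control. Both DKO libraries lay above both control libraries, and the log2 change was 2.18 ± 0.37 (SE, edgeR quasi-likelihood test, adjusted p = 0.199). Il5, the growth factor of eosinophils, had 4.65 and 9.0 CPM in DKO and 1.70 and 1.60 CPM in control (log2 change 1.96 ± 0.32, adjusted p = 0.165). Il13, which acts on epithelium, fibroblasts and macrophages, had 20.4 and 31.2 CPM in DKO and 5.54 and 8.89 CPM in control (1.75 ± 0.31, adjusted p = 0.205). DKO 2 was the highest library for each of the 3 cytokines, and the groups did not overlap. Areg, the amphiregulin ligand of the epidermal growth factor receptor, had 38.9 and 57.8 CPM in DKO and 20.8 and 16.6 CPM in control (1.29 ± 0.19, adjusted p = 0.154), again without overlap.

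Of the 10 members, 0 were called in this fit at an adjusted p of 0.05, as were 0 of all 14427 genes (0%). At an unadjusted p under 0.05 there were 5 members and 1797 genes (12.5%), and DESeq2 on the same sums called 408 genes, with the adjusted p of Il4 at 8.8e-07, Il5 at 1.6e-05, Il13 at 4.1e-06, Areg at 8.4e-07 and Gata3 at 7.2e-05. Both DKO libraries stood above both control libraries for 5 members, and for 30.4% of all genes; 46.8% of genes had no overlap in either direction. In these sums, more cells of a type and more RNA per cell cannot be told apart, and T-like cells were the larger share in DKO. Rad50, which lies between Il13 and Il5, had 50.3 and 47.7 CPM in DKO and 49.3 and 44.1 CPM in control, and its groups overlapped.

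Within T-like cells the changes were smaller. Il4 had 42.8 and 68.2 CPM in DKO T-like cells and 23.5 and 15.3 CPM in control T-like cells (log2 change 1.42 ± 0.28, edgeR, adjusted p = 0.199). Il5 had 24.9 and 45.1 CPM in DKO and 13.1 and 15.6 CPM in control (1.22 ± 0.30, adjusted p = 0.222). Il13 had 108 and 156 CPM in DKO and 42.4 and 85.4 CPM in control (0.98 ± 0.44, adjusted p = 0.441). The lower DKO library stayed above the higher control library for each of them. At resolution 2 the Il13-rich cells left the T-like class as an unnamed cluster, and Il5 (-0.28) and Il13 (-0.34) in the T-like cells that remained changed sign. Areg had 196 and 282 CPM in DKO and 135 and 129 CPM in control (0.78 ± 0.15, adjusted p = 0.106), also without overlap. Of the 10 members, 0 were called in T-like cells, where 4 of 11323 genes were (0.0353%), and 5 members were above in both DKO libraries, against 32.3% of genes. DESeq2 called Il4 (adjusted p = 3.3e-05), Il5 (0.0105) and Areg (0.00533) in the same T-like sums, and not Il13 (0.743). Without DKO 1 the log2 change was 1.69 for Il4, 1.56 for Il5 and 0.99 for Areg, without DKO 2 it was 1.09, 0.78 and 0.54, and all 6 of these passed the adjusted threshold. The 4 genes called by edgeR were Irf4 and Nr4a1, higher in DKO, and Lyz2 and Apoe, lower; Nr4a1, Lyz2 and Apoe are named after their values were seen.

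Cluster 5 itself was a larger share of the kept cells in DKO, 8.39% (95% Clopper-Pearson interval 7.71 to 9.11, counting error only) and 10.3% (9.47 to 11.2), against 4.97% (4.50 to 5.48) and 4.37% (3.92 to 4.86) in control. The groups did not overlap, and the log2 change was 1.00 ± 0.55 (edgeR on cell numbers, adjusted p = 0.397). Sums over this cluster were fitted after its ligand content was seen. Il5 had 95.01 and 143 CPM in DKO cluster 5 cells, against 56.2 and 54.0 CPM in control cluster 5 cells. Both DKO libraries were well above both control libraries; the control pair lay close together. The log2 change of Il5 was 1.05 ± 0.18 (edgeR quasi-likelihood test, adjusted p = 0.0464). It was 1 of 12 genes called among 9257 (0.13%), and the single member called of 9 tested. That call was near the threshold: the adjusted p was 0.0589 without DKO 2, 0.0773 without control 1, 0.0973 without control 2 and 0.0559 with DESeq2 size factors, while the log2 change stayed between 0.76 and 1.29, and over all alternatives the adjusted p ran between 4.6e-08 and 0.0973.

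The other ligands moved the same way inside cluster 5 without passing. Il4 had 154 and 214 CPM in DKO and 104 and 58.2 CPM in control (log2 change 1.11 ± 0.26, edgeR, adjusted p = 0.226). Il13 had 414 and 494 CPM in DKO and 185 and 321 CPM in control (0.78 ± 0.26, adjusted p = 0.314). Areg had 584 and 774 CPM in DKO and 418 and 289 CPM in control (0.88 ± 0.18, adjusted p = 0.0695). None of the 3 overlapped between the groups, and 7 of the 9 members tested had both DKO libraries above, against 27.7% of genes in the cluster; 45.4% of its genes had no overlap in either direction. With DESeq2 the adjusted p was 0.0219 for Il4, 0.015 for Areg and 1.00 for Il13. Under edgeR, Il4 passed without DKO 1 (1.31) or control 1 (1.57), Areg without DKO 1 (1.05) or control 1 (1.15) and Il13 without control 2 (1.27). Some genes of myeloid cells, named after their values were seen, were lower in the same sums: Lyz2, the lysozyme of myeloid cells, had 33.1 and 32.4 CPM in DKO and 118 and 140 CPM in control, and Apoe, an abundant macrophage transcript, had 76.6 and 107 CPM in DKO and 191 and 166 CPM in control. Both were called, as were Ccl6 and Pf4, also lower, and the 12 monocyte/macrophage markers together had 586 and 621 CPM in DKO and 694 and 718 CPM in control, with none at 0. Summed mast cell and basophil markers had 64.0 and 93.6 CPM in DKO and 122 and 23.4 CPM in control, with 3 of 8 at 0, and summed innate lymphoid markers 939 and 1098 CPM in DKO and 1015 and 899 CPM in control, so both overlapped. The part of such other-cell RNA in the ligand levels was not tested.

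**Figure D2:**
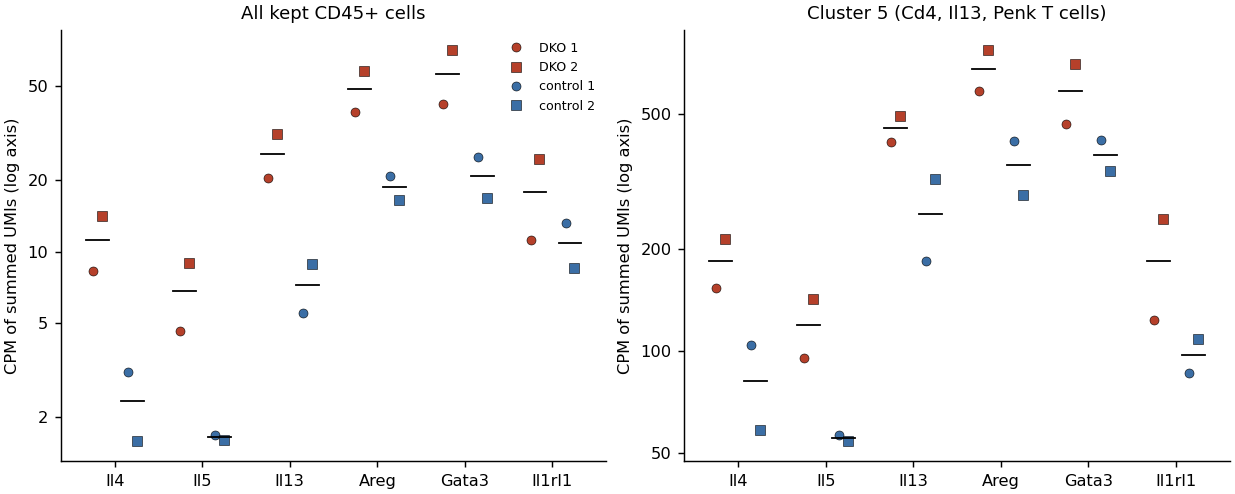
CPM of summed UMIs (log axis) of the 4 ligands and the source-cell genes Gata3 and Il1rl1 in all kept cells (left) and in cluster 5 (right), with each library as a point (red DKO, blue control; circle library 1, square library 2) and the group mean as a bar. DKO points lie above control points for Il4, Il5, Il13, Areg and Gata3 in both panels, and Il1rl1 overlaps over all kept cells.

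A few cells held much of each ligand's RNA. The single cell with the most Il4 UMIs held 34.5% and 9.99% of the Il4 UMIs of cluster 5 in DKO 1 and 2, and 17.2% and 45.4% in control 1 and 2. For Il13 these shares were 21.4% and 8.32% in DKO and 22.5% and 35.1% in control, and for Il5 they were 20.5% and 14.98% in DKO and 31.8% and 11.1% in control. Without that cell in each library, a check added after the values were seen, Il4 was 101 and 193 CPM in DKO and 86.6 and 31.9 CPM in control, Il5 75.8 and 122 CPM in DKO and 38.6 and 48.2 CPM in control, and Il13 328 and 455 CPM in DKO and 144 and 210 CPM in control. The groups still did not overlap for any of the 3. At a finer clustering (resolution 2), 106 cells led by Il13, Penk, Areg, Il4, Il10 and Il5, with Cd3e in 96.2%, held 67.5% of all Il4 UMIs, 68.3% of Il5, 63.3% of Il13 and 43.0% of Areg. They numbered 29 and 52 cells in DKO and 16 and 9 in control. In control 2 that finer cluster held 21.4% of the Il4 UMIs of its library, against 68.2% and 73.9% in DKO and 66.0% in control 1, and the larger Cd4-led neighbour held 71.8% of the Il4, 74.0% of the Il5 and 81.1% of the Il13 UMIs of control 2, though 15.2% of its Areg UMIs.

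The share of cluster 5 cells with a ligand UMI was compared after each cell had been thinned to 2000 UMIs, since DKO cells were deeper (median 4968 and 5784 UMIs in DKO cluster 5 cells, 4396 and 4651 in control). Il4 was detected in 6.49% and 7.71% of DKO cells and 5.88% and 3.23% of control cells. Il5 was detected in 5.07% and 5.51% of DKO cells and 2.24% and 4.52% of control cells, and Il13 in 9.33% and 12.6% of DKO cells and 7.28% and 8.71% of control cells. Areg was detected in 12.8% and 20.3% of DKO cells and 12.3% and 6.45% of control cells. All 4 differences pointed up in DKO without overlap, and the exact two-sided permutation p of 0.333 is the smallest that 2 against 2 libraries allow. At a depth of 1000 UMIs Areg overlapped between the groups (8.38% and 16.4% in DKO, 9.36% and 3.73% in control). Unthinned, the Il5 share was 7.34% and 9.38% in DKO and 4.21% and 9.57% in control, with an exact p of 1. In monocyte/macrophage-like cells, which should lack the gene, Il4 was detected in 0.111% and 0.274% of thinned DKO cells and 0 of 3550 and 0 of 3261 thinned control cells, which allows up to 0.0845% and 0.092%. At least 1 of Il4, Il5 and Il13 was detected in 18.9% and 23.3% of DKO cluster 5 cells and 15.5% and 18.5% of control cluster 5 cells, so the groups stood close by this unthinned measure, with DKO 1 just above control 2. Over all kept cells these shares were 2.56% and 4.05% in DKO and 1.11% and 1.40% in control.

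Cells with 1 ligand often held another. Of the 256 kept cells with an Il4 UMI, 50% also had Il13, 23.4% Il5, 73.8% Gata3, 70.3% Cd4, the co-receptor of helper T cells, and 70.7% Cd3e, against 0.859%, 0.367%, 13.2%, 7.70% and 20.6% of the cells without Il4. Of the 154 cells with Il5, 55.8% had Il13 and 39.0% Il4. Fcer1a was found in 3.91% of the cells with Il4. Csf1r, the macrophage growth factor receptor, was found in 21.5% of the cells with Il4, against 60.8% of those without. These are shares of cells over all 4 libraries, given as a description.

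Gata3, the transcription factor that opens the Il4 locus in T helper 2 cells and is also needed for T cell development, was found across lymphocytes, with 54.5% of its UMIs in cluster 5 and 12.2% in cluster 6, led by Cd8b1 and Cd8a. Over all kept cells it had 41.8 and 71.1 CPM in DKO and 25.1 and 16.8 CPM in control (log2 change 1.36 ± 0.28, edgeR, adjusted p = 0.227). In T-like cells it had 199 and 323 CPM in DKO and 169 and 146 CPM in control (0.65 ± 0.20, adjusted p = 0.252). In cluster 5 it had 467 and 702 CPM in DKO and 419 and 339 CPM in control (0.57 ± 0.18, adjusted p = 0.260). Both DKO libraries were above both control libraries in all 3, with a smaller difference between DKO 1 and control 1 than between the libraries of DKO. Outside the ligand-rich cluster the order varied. In cluster 6 Gata3 had 112 and 140 CPM in DKO and 82.2 and 65.1 CPM in control (0.66 ± 0.16, adjusted p = 0.0912), and in NK-like cells 96.9 and 131 CPM in DKO and 95.6 and 58.4 CPM in control (0.50 ± 0.19, adjusted p = 0.451), both without overlap. In regulatory T-like cluster 20 it had 249 and 340 CPM in DKO and 251 and 219 CPM in control (0.26 ± 0.18, adjusted p = 0.656), and in cycling T-like cluster 23 it had 69.1 and 93.2 CPM in DKO and 81.6 and 68.8 CPM in control (0.032 ± 0.20, adjusted p = 0.981), both with overlap. None of these passed with all 4 libraries. Without DKO 1 the change passed in T-like cells (0.92), cluster 5 (0.81) and cluster 6 (0.79), and without control 1 it passed in NK-like cells (0.82). In NK-like cells 6 of 9210 genes were called (0.0651%).

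Il1rl1, the IL-33 receptor chain, was spread over 3 kinds of cells: 61.1% of its UMIs lay in T-like cells, 22.8% in cluster 24, led by the collagen genes of tumour or stromal cells, and 8.35% in the 94 cells of cluster 15. Over all kept cells it had 11.2 and 24.7 CPM in DKO and 13.2 and 8.56 CPM in control, so the groups overlapped (log2 change 0.64 ± 0.39, edgeR, adjusted p = 0.536). In cluster 5 it had 123 and 244 CPM in DKO and 85.7 and 108 CPM in control (0.86 ± 0.38, adjusted p = 0.476). DKO 2 was the high library, and without it the log2 change in cluster 5 was 0.32 (adjusted p = 0.694). Without DKO 1 it was 1.25 (adjusted p = 0.000319). In the regulatory T-like cluster 20 it had 124 and 188 CPM in DKO and 90.3 and 177 CPM in control, with overlap. In collagen-rich cluster 24 it had 65.5 and 86.2 CPM in DKO and 206 and 184 CPM in control. In cluster 15, whose cells differ in kind between libraries, it had 638 and 714 CPM in DKO and 1221 and 378 CPM in control. Both clusters had too few cells for a fit of Il1rl1. Its ligand gene Il33, looked up after the member values were seen, had 63 and 97 UMIs over all kept DKO cells and 10 and 28 over all kept control cells (log2 change 2.21 ± 0.59, adjusted p = 0.290).

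Areg in regulatory T-like cluster 20 did not follow cluster 5. It had 793 and 361 CPM in DKO and 490 and 659 CPM in control, with both extremes in DKO (log2 change -0.08 ± 0.45, edgeR, adjusted p = 0.980). Leaving out DKO 1 gave -0.73 (adjusted p = 0.0338) and leaving out DKO 2 gave 0.40. Leaving out control 2 gave 0.145, so the direction there turned with 1 library of either group. In monocyte/macrophage-like cells Areg was near the limit of detection, at 2.54 and 2.10 CPM in DKO and 3.00 and 3.47 CPM in control (-0.52 ± 0.26, adjusted p = 0.657). Whether Areg changed differently in the myeloid class and in the T-like class was tested as a class-by-group term, in which 60 of 13197 genes were called (0.455%). It was -1.25 ± 0.25 for Areg (adjusted p = 0.0783), and no member passed. Without DKO 1, DKO 2 or control 1 the Areg term did pass, at adjusted p of 0.00507, 0.0352 and 0.0116, and without control 2 it did not (0.366).

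The receptor genes stayed close between the groups in most cells. Il4ra, the chain shared by the signalling receptors of IL-4 and IL-13, was found in every class. Over all kept cells it had 250 and 212 CPM in DKO and 218 and 290 CPM in control (log2 change -0.22 ± 0.21, edgeR, adjusted p = 0.679). In monocyte/macrophage-like cells it had 295 and 249 CPM in DKO and 228 and 272 CPM in control (0.08 ± 0.19, adjusted p = 0.922), and in dendritic-like cells 191 and 148 CPM in DKO and 149 and 157 CPM in control (0.08 ± 0.18, adjusted p = 0.917). These groups overlapped, and the sign in monocyte/macrophage-like cells turned under other cell filters. Cluster 8, an unnamed cluster led by the macrophage chemokine genes Pf4 and Ccl7, held 24.5% of all Il4ra UMIs, with 503 and 455 CPM in DKO and 375 and 461 CPM in control.

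Neutrophil-like cells were different in order. Il4ra had 152 and 125 CPM in DKO neutrophil-like cells, against 247 and 254 CPM in control neutrophil-like cells. Both DKO libraries were lower by a margin larger than the spread within either group (log2 change -1.005 ± 0.28, edgeR adjusted p = 0.311). In the CD8-led cluster 6 it had 59.2 and 62.6 CPM in DKO and 85.2 and 78.3 CPM in control (-0.52 ± 0.15, adjusted p = 0.144), again with no overlap. Neither passed; in neutrophil-like cells 0 of 3534 genes were called (0%), with 313 at an unadjusted p under 0.05 and 1 called by DESeq2. NK-like cells went the other way, with 110 and 89.0 CPM in DKO and 84.0 and 72.1 CPM in control (0.28 ± 0.17, adjusted p = 0.610).

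Il13ra1, the chain that lets myeloid and stromal cells answer IL-13, was nearly absent from lymphocytes and clear in myeloid cells. T-like cells had 1.64 and 1.09 CPM in DKO and 2.46 and 1.73 CPM in control. Neutrophil-like cells had 294 and 283 CPM in DKO and 305 and 274 CPM in control (log2 change -0.16 ± 0.25, edgeR, adjusted p = 0.891). Those libraries overlapped closely, unlike Il4ra in the same cells. Monocyte/macrophage-like cells had 55.5 and 76.3 CPM in DKO and 61.2 and 70.8 CPM in control (-0.06 ± 0.18, adjusted p = 0.947), and dendritic-like cells 40.5 and 53.6 CPM in DKO and 37.0 and 41.4 CPM in control (0.20 ± 0.17, adjusted p = 0.762). Within the class, monocyte-like cluster 9, led by Hp, Ifitm6 and Ace, had 161 and 118 CPM in DKO and 113 and 117 CPM in control, with DKO 1 standing above the rest.

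**Figure D3:**
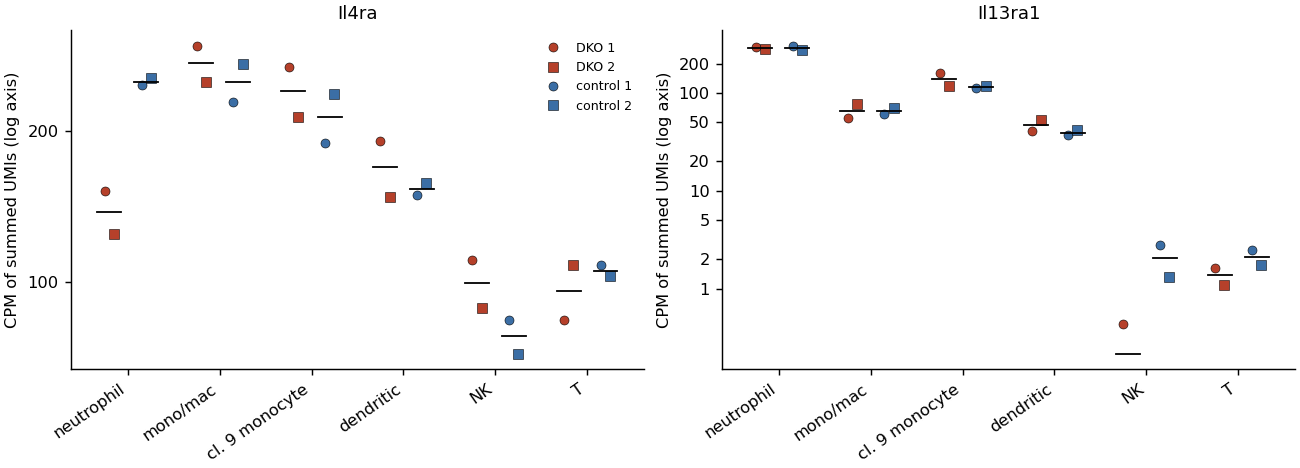
CPM of summed UMIs (log axes) of Il4ra (left) and Il13ra1 (right) in neutrophil-like, monocyte/macrophage-like, cluster 9 monocyte-like, dendritic-like, NK-like and T-like cells, with each library as a point (red DKO, blue control) and the group mean as a bar. Il4ra lies lower in both DKO neutrophil-like sums, Il13ra1 does not, and Il13ra1 in NK-like cells of DKO 2 was 0 and is not drawn.

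The response genes Retnla and Chil3 differed more between the 2 DKO libraries than between the groups. Retnla encodes RELMα, a secreted protein of IL-4-activated macrophages. In monocyte/macrophage-like cells it had 122 and 750 CPM in DKO and 285 and 164 CPM in control, so DKO held both the lowest and the highest library (log2 change 0.90 ± 0.79, edgeR, adjusted p = 0.772). Without DKO 2 the change was -0.89 and without DKO 1 it was 1.68, so its direction rested on 1 library. Chil3 encodes the chitinase-like protein Ym1 and is also made by monocytes and alveolar macrophages. It had 271 and 1416 CPM in DKO and 681 and 1173 CPM in control (-0.21 ± 0.75, adjusted p = 0.950), with DKO 1 lowest and DKO 2 highest again. Without DKO 2 it was -1.81, and without DKO 1 or control 2 it turned to 0.52 or 0.30. After thinning to 2000 UMIs, Retnla was detected in 4.98% and 15.6% of DKO monocyte/macrophage-like cells and 9.21% and 4.88% of control ones, and Chil3 in 19.5% and 36.9% of DKO and 30.6% and 43.9% of control ones (exact permutation p = 0.667 for each). T-like cells, which should lack both, had Retnla in 0.681% and 3.29% of thinned DKO cells and 2.01% and 0.750% of control cells, with DKO 2 highest and control 1 next, as in the myeloid cells.

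In this class 0 of the 9 members tested were called, and 1 of 12675 genes was (0.00789%), Dnase1l3, higher in DKO. DESeq2 called 89. At an unadjusted p under 0.05 there were 976 genes. The 2 members Il4 and Gata3, at under 2 CPM, stood above in both DKO libraries, against 22% of genes, and Areg and Il1rl1 below, against 17.9%.

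The clusters that carried Retnla did not move together. Cluster 1, led by Retnla, Cd163 and Cbr2, held 39.99% of its UMIs, with 762 and 3762 CPM in DKO and 1057 and 1364 CPM in control, and numbered 135 and 190 cells in DKO and 405 and 94 in control. Its change was 0.88 ± 0.86 (edgeR, adjusted p = 1.00), 1.62 without DKO 1, which passed, and -0.64 without DKO 2. Cluster 2, led by the interferon-induced genes Rsad2 and Ifit1, had 241 and 1929 CPM in DKO and 79.8 and 81.8 CPM in control (log2 change 3.71 ± 1.49, edgeR, adjusted p = 0.671). Both DKO libraries were above there, DKO 2 by far, and the control pair agreed closely. Cluster 7, led by Apol7c, Igf1 and H2-M2, had 155 and 323 CPM in DKO and 490 and 595 CPM in control (-1.24 ± 0.33, adjusted p = 0.290), so both DKO libraries were below. Without DKO 2 that change was -1.84 and passed. Dendritic-like cells had 73.7 and 1285 CPM in DKO and 88.9 and 96.5 CPM in control (2.76 ± 1.75, adjusted p = 0.741), with DKO 2 alone high. Most of that RNA was in few cells: 12 and 63 of the DKO dendritic-like cells and 19 and 16 of the control ones belonged to the finer cluster led by Retnla, Lpl, Ear2 and Lyz1 at resolution 2, which was monocyte/macrophage-like by its markers, and held 75.0% and 98.6% of the class's Retnla UMIs in DKO and 89.6% and 95.95% in control. Without these cells, a check added after the values were seen, Retnla had 19.2 and 22.4 CPM in DKO dendritic-like cells and 9.74 and 4.11 CPM in control ones. With no doublet removal the change in the class was 0.28 and at resolution 2 it was 1.51. With all cells, leaving out DKO 2 gave -0.33, and leaving out DKO 1 gave 3.66, which passed. In dendritic-like cells 0 of the 6 members tested and 0 of 9830 genes (0%) were called, with 781 genes at an unadjusted p under 0.05 and 4 called by DESeq2.

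Chil3 was found in most myeloid clusters. Cluster 9, the Hp and Ace monocyte-like cells, had 871 and 2523 CPM in DKO and 2136 and 3502 CPM in control (log2 change -0.82 ± 0.75, edgeR, adjusted p = 0.723). Cluster 8 had 274 and 3332 CPM in DKO and 557 and 683 CPM in control (1.48 ± 1.05, adjusted p = 0.726). DKO 1 was the lowest library in both, and without DKO 2 the change in cluster 9 was -1.73 and passed. Without DKO 2 the change in cluster 8 was -1.17 and without DKO 1 it was 2.37, both with an adjusted p under the threshold (1.4e-06 and 2.3e-10), so the call and its sign followed the library left out. Cluster 8 was 5.34% and 5.98% of the kept cells in DKO and 11.2% and 21.1% in control (log2 change -1.51 ± 0.57, adjusted p = 0.167). In the annotation, Chil3 transcripts are 94.3% identical to those of the neighbouring paralogue Chil4 over their whole length and 89.8% over the last 400 bases. Chil4 had 16 and 68 UMIs in DKO and 18 and 10 in control over all kept cells. How reads that fit both were counted was not tested. Retnla and its paralogue Retnlg are 82.0% identical over the whole transcript and 76.9% over the last 400 bases.

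**Figure D4:**
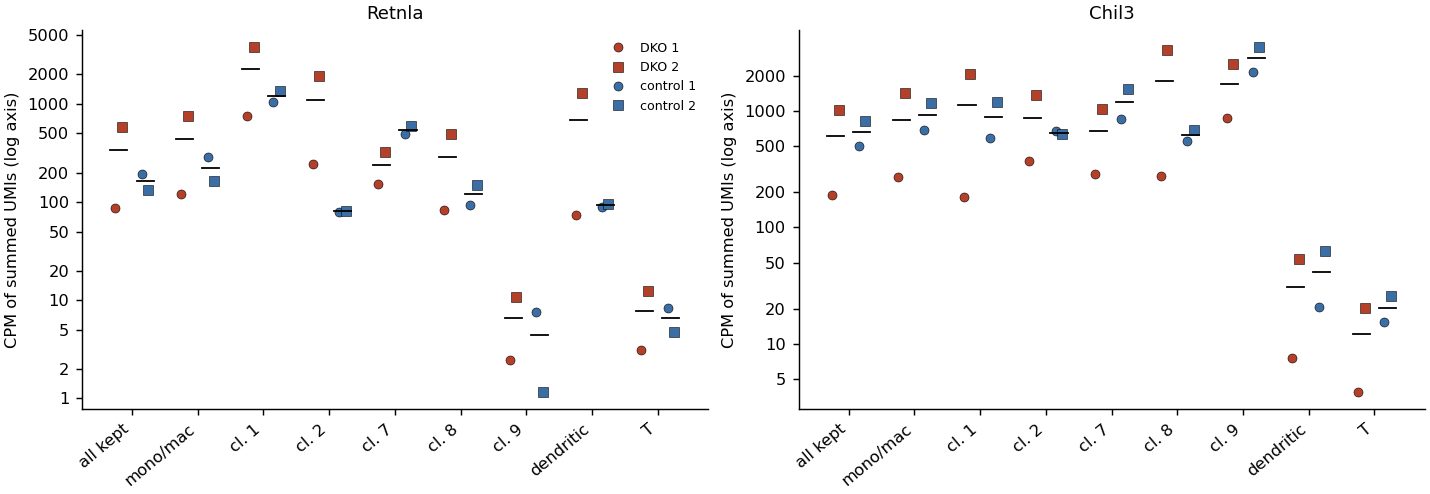
CPM of summed UMIs (log axes) of Retnla (left) and Chil3 (right) in all kept cells, monocyte/macrophage-like cells, clusters 1, 2, 7, 8 and 9, dendritic-like cells and, for background, T-like cells, with each library as a point (red DKO, blue control; circle library 1, square library 2) and the group mean as a bar. The red square (DKO 2) lies above the red circle (DKO 1) in every set of cells, and the blue points mostly fall between them.

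Other genes of the pathway were taken from 5 lists written with general knowledge, but chosen with earlier results of these data known. Among 25 type 2 lymphocyte genes, 23 were tested over all kept cells, 19 had a positive log2 change and 4 a negative one, with a median of 0.63, beside 0.01 over all genes, and none passed. The median was 0.85 without DKO 1, 0.44 without DKO 2, 0.91 without control 1 and 0.41 without control 2. Rora, a factor of innate lymphoid and T helper cells, had 46.0 and 48.5 CPM in DKO and 26.8 and 21.6 CPM in control (log2 change 0.89 ± 0.11, edgeR, adjusted p = 0.154). Icos, a T cell costimulator, had 156 and 148 CPM in DKO and 72.8 and 53.2 CPM in control (1.20 ± 0.15, adjusted p = 0.154). Cd4 and Tnfrsf18, which encodes the T cell receptor GITR, were likewise above in both DKO libraries (1.12 and 0.63). The list shares genes with T cells at large, and T-like cells were the larger share in DKO. In T-like cells the same list had 14 positive and 9 negative changes of 23, with a median of 0.20 beside 0.01, and 1 gene passed: Irf4, a factor of helper T cell and macrophage activation, rose to 87.9 and 81.7 CPM in DKO, against 45.1 and 40.9 CPM in control (0.91 ± 0.11, adjusted p = 0.0453). In cluster 5, 13 of 22 were positive, with a median of 0.11 beside 0 (0.05 without DKO 2 and 0.18 without control 1), and none passed. There Maf, an activator of Il4 and Il10, had 717 and 701 CPM in DKO and 435 and 350 CPM in control (0.80 ± 0.15, adjusted p = 0.0546), and Klrg1, a receptor of effector cells, had 13.2 and 13.8 CPM in DKO and 32.1 and 25.2 CPM in control (-1.14 ± 0.23, adjusted p = 0.0673).

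Of the 13 alarmin and helper cytokine genes, 9 were tested over all kept cells and 8 had a positive change, with a median of 0.75 (0.49 without DKO 2), and none passed. Il10, a cytokine that restrains macrophages, had 19.5 and 39.9 CPM in DKO and 9.76 and 5.67 CPM in control (log2 change 1.87 ± 0.40, edgeR, adjusted p = 0.245). In cluster 5 Il10 had 197 and 421 CPM in DKO and 81.5 and 19.8 CPM in control (2.53 ± 0.93, adjusted p = 0.499). Il2, the T cell growth factor, was the reverse, with 8.35 and 5.65 CPM in DKO cluster 5 cells and 102 and 43.8 CPM in control ones (-3.45 ± 0.55, adjusted p = 0.209). Both were without overlap, and neither passed; 2 of the 5 genes tested in the cluster had a positive change, with a median of -0.02 beside 0, which ran between -0.26 without DKO 2 and 0.68 without control 2. Of the 20 mast cell, basophil and eosinophil genes, 17 were tested over all kept cells, 9 positive and 8 negative, with a median of 0.05, which was 0.30 without DKO 1, -0.01 without DKO 2, 0.80 without control 1 and 0.32 without control 2. In cluster 5, 7 of them were tested and 1 passed: Cyp11a1, the first enzyme of steroid synthesis, reported in T helper 2 cells as well as mast cells, rose to 63.3 and 70.7 CPM in DKO, against 34.2 and 23.4 CPM in control (1.15 ± 0.18, adjusted p = 0.0321). Of the 22 receptor and JAK-STAT6 genes, 17 were tested in monocyte/macrophage-like cells, 9 positive and 8 negative, with a median of 0.01 equal to that of all genes (-0.05 without DKO 1, -0.01 without DKO 2, -0.12 without control 1 and 0.09 without control 2).

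The 34 myeloid genes induced by IL-4 and IL-13, listed without Retnla and Chil3, were mostly higher in DKO monocyte/macrophage-like cells, and none passed. Of the 32 tested, 27 had a positive log2 change and 5 a negative one, with a median of 0.47, beside 0.01 over all 12675 genes. In 20 of them both DKO libraries were above both control libraries, against 22% of genes, and in 1, F13a1, both were below. Since the list was chosen with earlier results of these data known, setting it beside all genes is a description. The list as a set was not tested. With the unnamed clusters 8 and 14 added to the class, 16 of the 32 had both DKO libraries above. In that wider class 27 had a positive change, with a median of 0.51. Mgl2, a lectin receptor of alternatively activated macrophages and dendritic cells, had 688 and 684 CPM in DKO and 396 and 305 CPM in control (0.93 ± 0.17, edgeR, adjusted p = 0.406). Slc7a2, an arginine transporter, had 724 and 987 CPM in DKO and 485 and 287 CPM in control (1.11 ± 0.26, adjusted p = 0.474). Pdcd1lg2, which encodes the PD-1 ligand PD-L2, had 171 and 174 CPM in DKO and 101 and 113 CPM in control (0.65 ± 0.14, adjusted p = 0.457), and Flt1, a receptor for VEGF, had 111 and 179 CPM in DKO and 72.8 and 69.0 CPM in control (0.98 ± 0.22, adjusted p = 0.457). For these 4 genes DKO 1 and DKO 2 lay on the same side, unlike Retnla and Chil3. Cluster 7, which Slc7a2 helps to define, was a larger share of the kept cells in DKO (7.51% and 11.0%) than in control (5.47% and 2.70%), so the class sums hold different mixes of clusters. Within cluster 7 Slc7a2 had 1196 and 1246 CPM in DKO and 919 and 885 CPM in control (0.39 ± 0.14, adjusted p = 0.377), a smaller change than over the class, and Flt1 had 147 and 210 CPM in DKO and 97.4 and 94.8 CPM in control (0.85 ± 0.17, adjusted p = 0.0547). Arg1, the arginase of such macrophages, named here after its values were seen, had 4707 and 4371 CPM in DKO and 3806 and 4238 CPM in control (0.13 ± 0.19, adjusted p = 0.860). The median of the list was 0.62 without DKO 1, 0.28 without DKO 2, 0.57 without control 1 and 0.47 without control 2.

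**Figure D5:**
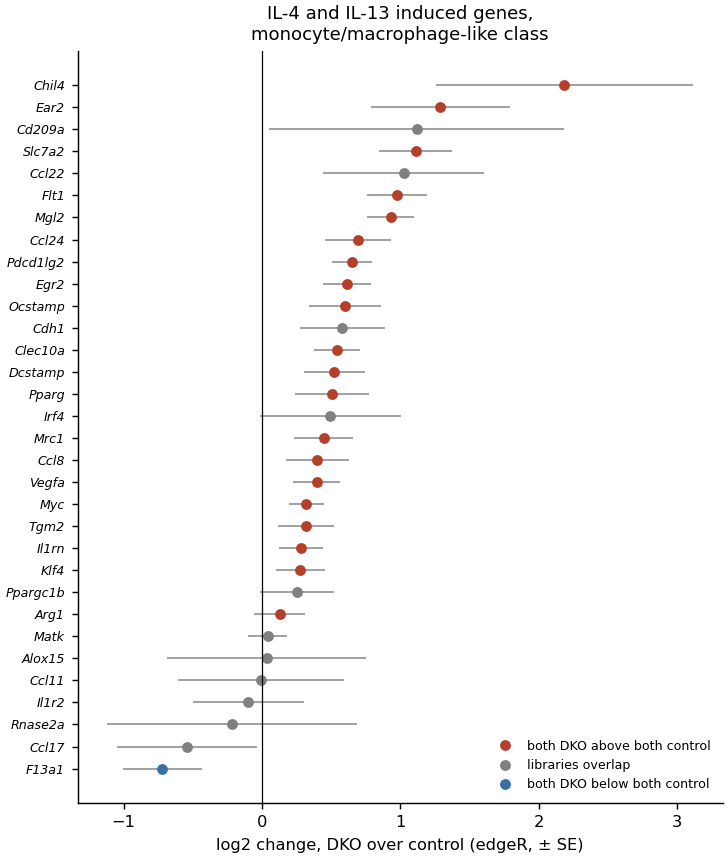
Log2 change of DKO over control (edgeR, ± SE) of the 32 IL-4 and IL-13 induced genes tested in monocyte/macrophage-like cells, sorted by size, with red where both DKO libraries were above both control libraries, blue where both were below and grey where they overlapped. Most points lie right of 0, none passed the adjusted threshold, and the wide bars of Chil4, which shares most of its sequence with Chil3, Cd209a and Rnase2a go with a large spread between libraries.

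In dendritic-like cells 21 of 27 of these genes had a positive change, with a median of 0.31 beside 0.01. The median was 0.55 without DKO 1, 0.27 without DKO 2, where 17 of 27 were positive, 0.36 without control 1 and 0.45 without control 2. Ccl24, an eosinophil chemoattractant, had 524 and 745 CPM in DKO and 286 and 241 CPM in control (log2 change 1.19 ± 0.18, edgeR, adjusted p = 0.182). Ccl17, a chemoattractant of T helper 2 cells, was opposite, with 280 and 254 CPM in DKO and 599 and 388 CPM in control (-0.95 ± 0.21, adjusted p = 0.431). The dendritic-like sums kept the cells of the Retnla-led, monocyte/macrophage-like finer cluster, 12 and 63 in DKO and 19 and 16 in control. Summed monocyte/macrophage markers in the class had 1418 and 2403 CPM in DKO and 1554 and 1711 CPM in control. The part of such cells in the dendritic-like changes was not tested. In T-like cells 12 of the induced genes were positive and 12 negative. Fits of single clusters, run after the class results were seen, called some of the induced genes. In cluster 10, 2 of the 27 tested were called, against 0.16% of all genes. In cluster 7 it was 3 of 29, against 0.657%. In cluster 18, 3 of 26 were called higher and 1 lower, against 0.427%. F13a1 fell in cluster 2 (-1.13), Arg1 and Ccl8 fell in T-like cluster 11 (-0.85 and -0.84), and Irf4 rose in cluster 6 (1.05). These were 1 of 21 induced genes tested in cluster 2, 2 of 16 in cluster 11 and 1 of 17 in cluster 6. Other genes were called in these clusters too, and the share of all genes called is not given for them. These calls are therefore no result about the list. In cluster 11 Lyz2 (-2.14), Apoe (-0.99), C1qa (-0.92) and C1qb (-0.98), named after their values were seen, were called lower too. The 12 monocyte/macrophage markers together overlapped there, at 1834 and 1515 CPM in DKO and 1570 and 1737 CPM in control. The part of such other-cell RNA in the Arg1 and Ccl8 levels was not tested. Mgl2 rose to 283 and 310 CPM in DKO cells of cluster 10, led by Ly6i and Nos2, against 122 and 112 CPM in control (1.30 ± 0.15, adjusted p = 0.00126), and Pdcd1lg2 rose there too (0.84 ± 0.15, adjusted p = 0.0438). In cluster 7, where Retnla was lower, Ocstamp, a gene of macrophage fusion, rose to 74.6 and 63.2 CPM in DKO, against 22.8 and 21.6 CPM in control (1.59 ± 0.16, adjusted p = 0.00388), and Il1r2 and Vegfa rose (1.99 and 0.83). In the cycling cluster 18, Ccl24, Ear2 and Flt1 rose (1.02, 1.11 and 0.95), and Rnase2a, an eosinophil-type ribonuclease gene, fell to 7.47 and 8.41 CPM in DKO, against 34.9 and 24.8 CPM in control (-1.98 ± 0.23, adjusted p = 0.00208).

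Across the 25 clusters, the genes most like each member were named by Pearson correlation of log2(CPM + 1), as a description over clusters that share libraries and depth. Il4 was most like Dgki (r = 0.965), Il13 (0.954) and B630019A10Rik (0.925), and Il13 most like Il4, Dgki and B630019A10Rik. Il5 was most like Gm14718 (0.953), Fa2h and 1700061F12Rik (0.905 each). Areg was most like Penk (0.856), the proenkephalin gene, and Gata3 most like Trbc2 (0.971), a T cell receptor constant gene. Il1rl1 was most like Prickle1 (0.890) and Il4ra most like Tcn2 (0.881). Il13ra1 was most like Tnfaip2 (0.959), Retnla most like Rnf144b (0.884) and Chil3 most like Lyz2 (0.966). The next in order were Sdcbp2 and Rgs9 for Areg, Dnaja4 and Gprin3 for Gata3, Ptpn13 and Grin2d for Il1rl1, Pde8a and Tmem55b for Il4ra, Gda and Atp6v1g1 for Il13ra1, Car9 and Kcng2 for Retnla, and Tlr8 and Tfec for Chil3.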

How the data were processed

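Live CD45+ cells of 4 droplet libraries, 2 a group, were measured. UMI counts per gene and barcode were deposited by the authors as raw matrices made with Cell Ranger (matrix header software 3.1.0, per the file headers), and the submitters' processing notes name Seurat 3.1.0, R 3.6.0, mm10 and GRCh38. Cell barcodes were required to have 200 genes, 500 UMIs and no more than 10% of UMIs from mitochondrial genes, and the highest Scrublet scores were removed as doublets, at 0.8% of barcodes per 1000. Cells were clustered with scanpy 1.11.5 (2000 variable genes without the 9 members among them, 30 components, 20 neighbours, Leiden resolution 1), and clusters were named from marker lists; rebuilt names may differ from the study's. UMIs were summed per library and class, with at least 50 cells in every library, and tested with edgeR 4.0.16's quasi-likelihood test (TMM scaling, filterByExpr, robust), Benjamini-Hochberg adjusted over all genes tested. Classes and clusters were fitted separately. Shares of cells were compared by exact permutation tests, two-sided. Intervals are Clopper-Pearson at 95% and cover counting error only, as does the limit of 3 counts used for a count of 0. Alternatives were DESeq2 1.42.0, its size factors, no filter on low counts, a replicate block, each library left out, no doublet removal, a stricter cell filter, members kept in clustering and resolution 2.

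Each library is a pool of tumours, so p-values measure the spread between pools. The genes named were the 10 members, the 3 genes most like each of them across clusters, and from each pathway list and class those called or the 4 with the smallest p at 20 CPM or more in the higher group. Members, lists and tests were chosen with earlier results of these data known. The file's gene coordinates follow GENCODE vM21 (GRCm38), and all 5 upstream sequences matched by symbol to RefSeq's promoter table. The scripts were tested on simulated data.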

Additional observations from a re-analysis of the deposited data

Results flagged for a closer look

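In 3 cases the libraries of 1 cluster all moved one way and those of another all moved the other way, for the same gene. The difference between the clusters was not tested in any of them.

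Il1rl1 was higher in both DKO libraries in cluster 5 (123 and 244 CPM in DKO, 85.7 and 108 CPM in control, log2 change 0.86) and lower in both in the cycling T-like cluster 23 (17.6 and 20.8 CPM in DKO, 25.4 and 21.3 CPM in control, -0.36), a difference of 1.22 on the log2 scale. Il4ra was higher in both DKO libraries in cluster 5 (56.0 and 68.5 CPM in DKO, 44.2 and 51.6 CPM in control, 0.33) and lower in both in cluster 6 (59.2 and 62.6 CPM in DKO, 85.2 and 78.3 CPM in control, -0.52), a difference of 0.85. Of the 20 clusters where Il4ra reached 20 CPM, both DKO libraries were above in 6 and below in 2. Retnla was higher in both DKO libraries in cluster 2 (241 and 1929 CPM in DKO, 79.8 and 81.8 CPM in control, 3.71) and lower in both in cluster 7 (155 and 323 CPM in DKO, 490 and 595 CPM in control, -1.24), a difference of 4.94. With 2 libraries a group, such an order is common: the libraries of the groups did not overlap for 45.4% of genes in cluster 5.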

How the results depend on the processing

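Counts of called genes depended strongly on the setting, and member values less so. Over all kept cells DESeq2 called 408 genes and no filter on low counts 76. In T-like cells DESeq2 called 43, its size factors in edgeR 1, no filter 517 and the stricter cell filter 13, and in monocyte/macrophage-like cells DESeq2 called 89, no filter 549 and the stricter filter 2. In dendritic-like cells DESeq2 called 4 and no filter 117, and in NK-like cells no filter called 123 and members kept in clustering 12. In neutrophil-like cells DESeq2 called 1, no filter 42, no doublet removal 8, and DESeq2 size factors, the stricter filter, members kept and resolution 2 called 2 each. In cluster 5 no filter called 211, and the log2 change of Il5 with DESeq2 size factors was 1.04, no longer past the threshold.

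At resolution 2 the Il13-rich cells left the T-like class as an unnamed cluster, and Il5 (-0.28) and Il13 (-0.34) changed sign in the T-like cells that remained. Why they changed sign was not tested. In monocyte/macrophage-like cells, no doublet removal, the stricter filter, resolution 2 and the addition of the unnamed clusters 8 and 14 gave Il4ra -0.070, -0.030, -0.020 and -0.052 and Il13ra1 0.044, 0.075, 0.022 and 0.071, and Chil3 was 0.021 with no doublet removal, 0.26 with the stricter filter and 0.11 with the clusters added; the cause was not tested. Of 314 values of single genes under these settings, 261 kept their direction and side of the threshold, 2 lost the call, 37 gained one and 14 changed sign.

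The labels do not say whether the replicate numbers pair the libraries. The difference of library 1 and 2 in DKO and in control correlated at -0.172 over all kept cells and -0.182 in T-like cells. It correlated at -0.174 in monocyte/macrophage-like cells and -0.16 in cluster 5. With 1 such difference a group, these values cannot settle the pairing. With the number as a replicate block, edgeR called 0 genes over all kept cells, 34 in T-like, 83 in monocyte/macrophage-like and 15 in NK-like cells, and Il5 in cluster 5 was 1.02 (adjusted p = 0.0532) and Chil3 in cluster 1 -0.43. With the numbers crossed, 385, 966, 5 and 70 genes were called over all kept cells and in T-like cells, monocyte/macrophage-like cells and cluster 5. The crossed pairing, the fits of single clusters, the added unnamed clusters and the levels without the top cell or without a finer cluster were chosen after seeing the data.

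Leaving out 1 library takes the lone library of a group to vary like the other group. The counts then ran between 0 and 22 over all kept cells, 2 and 647 in T-like, 3 and 445 in monocyte/macrophage-like, 0 and 854 in dendritic-like, 16 and 419 in NK-like and 9 and 77 in neutrophil-like cells, 11 and 196 in cluster 5, 4 and 334 for the class-by-group term, 0 and 0 for class shares and 0 and 1 for cluster shares. Il5 in cluster 5 ran between 0.76 and 1.29. Signs turned for Il4ra (-0.45 to 0.060), Retnla (-0.96 to 1.74) and Chil3 (-1.84 to 0.51) over all kept cells, for Il4ra (-0.090 to 0.27), Il13ra1 (-0.27 to 0.13), Retnla (-0.89 to 1.68) and Chil3 (-1.81 to 0.52) in monocyte/macrophage-like cells, and for Areg in cluster 20 (-0.73 to 0.40). They also turned for Il4ra (-0.18 to 0.31) and Retnla (-0.33 to 3.66) in dendritic-like cells, Retnla in clusters 1 (-0.64 to 1.62) and 8 (-0.56 to 1.95), and Chil3 in clusters 1 (-2.26 to 1.20) and 8 (-1.17 to 2.37). With 2 pools a group, tests have few residual degrees of freedom, and Il4, Il5 and Il13 UMIs came from 256, 154 and 348 cells.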
